A study of Mus musculus with 7 samples.

Results

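Of 323369 reference regions of open chromatin in mouse cortical neurons, 1019 (0.315%) were accessible in both parvalbumin (PV) and vasoactive intestinal polypeptide (VIP) interneurons and less so in somatostatin (SST) interneurons. They were chosen by read counts scaled so that the reads in all reference regions of a sample sum to 1000000 (CPM). In each region the lowest of the 4 PV and VIP values had to be 3 CPM or more, and at least 1.5 times the higher of both SST values. These same counts therefore fix the difference from SST, and the SST values below are a description with no test. At a lowest PV or VIP value of 3 CPM or more there were 23840 regions, of which 4.27% passed the ratio. Below they are called regions at the same level, which means only that they passed the same minimum. They were stronger at the median, with 14.2 and 13.9 CPM in the PV replicates against 6.61 and 6.66 at the 1019. In the VIP replicates it was 13.9 and 14.3 CPM against 8.44 and 9.39. The same rule gave 5206 regions for SST and PV (not VIP) and 1336 for SST and VIP (not PV).

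The data were ATAC-Seq, which counts the DNA fragments that a transposase cuts from open chromatin, of 6 samples with 2 replicates for each of 3 groups. Each sample held nuclei from the whole cortex of a single uninjected mouse of 6 to 12 weeks. The mice were F1 progeny of SUN1-2xsfGFP-6xMYC, a Cre-dependent GFP tag on the nuclear envelope carried by all groups, and of Pv-Cre for PV, Vip-IRES-Cre for VIP or Sst-IRES-Cre for SST. Tagged nuclei were captured with an antibody to GFP (INTACT), so each group is defined by its Cre driver, and any cell that used the driver at some time keeps the tag. The labels give male mice, the methods male and female, and neither gives a batch or date by sample. The other data were snRNA-Seq of the visual cortex of C57BL/6J mice of 6 to 10 weeks injected with an AAV9 library, 1 sample in 10 libraries.

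PV and SST interneurons arise in the medial ganglionic eminence of the embryo, and VIP interneurons in the caudal one. PV cells inhibit the soma of pyramidal neurons, SST cells mostly their dendrites, and VIP cells mostly inhibit other interneurons. Open regions far from gene starts often act as enhancers, which bind transcription factors through short sequence motifs and can act on genes other than the nearest.

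The sequences of 6 regions are printed below, each as the central 300 bases of its plus strand in GRCm38 (mm10). They are the region with the highest ratio to SST (nearest gene Marcks), another of the 8 highest (Klhl29), one of the most conserved (Nrip1), the one with the largest excess of VIP over PV (Frmd4b), and regions of genes that were higher in PV-like and VIP-like nuclei (Fam19a2, Pthlh). Capitals mark matches on either strand. The motifs are the E-box CAGCTG, the nuclear factor I (NFI) motif TTGGCA, the nuclear receptor motif AGGTCA and the homeodomain core TAATTA. The printed regions are richer in these motifs than the whole set. All 6 hold at least 2 of these motifs, against 33.6% of the regions of PV and VIP. Klhl29 had the most matches among the 8 highest ratios, and Nrip1 among the most conserved regions named below. For Pthlh the weaker region, with 3 matches, is printed and not the stronger one, with 1.
Marcks, chr10:37157193-37157492, intergenic: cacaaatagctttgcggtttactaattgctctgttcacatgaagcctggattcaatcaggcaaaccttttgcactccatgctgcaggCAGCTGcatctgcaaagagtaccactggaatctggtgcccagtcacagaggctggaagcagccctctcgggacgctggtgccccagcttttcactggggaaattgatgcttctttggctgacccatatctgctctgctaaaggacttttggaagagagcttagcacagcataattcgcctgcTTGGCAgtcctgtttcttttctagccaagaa
Klhl29, chr12:5336485-5336784, intron of Klhl29: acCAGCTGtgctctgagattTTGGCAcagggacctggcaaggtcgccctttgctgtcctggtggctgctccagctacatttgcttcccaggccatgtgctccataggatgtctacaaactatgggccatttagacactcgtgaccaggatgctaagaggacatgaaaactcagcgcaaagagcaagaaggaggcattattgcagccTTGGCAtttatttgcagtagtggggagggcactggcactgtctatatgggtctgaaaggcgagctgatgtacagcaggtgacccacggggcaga
Nrip1, chr16:76319849-76320148, intron of Nrip1: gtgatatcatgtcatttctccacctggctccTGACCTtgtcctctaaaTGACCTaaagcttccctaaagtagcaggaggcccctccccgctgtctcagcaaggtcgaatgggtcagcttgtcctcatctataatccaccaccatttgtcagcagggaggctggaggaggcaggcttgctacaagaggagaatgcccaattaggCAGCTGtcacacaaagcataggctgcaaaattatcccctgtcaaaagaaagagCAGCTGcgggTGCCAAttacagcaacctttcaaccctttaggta
Frmd4b, chr6:97536113-97536412, intron of Frmd4b: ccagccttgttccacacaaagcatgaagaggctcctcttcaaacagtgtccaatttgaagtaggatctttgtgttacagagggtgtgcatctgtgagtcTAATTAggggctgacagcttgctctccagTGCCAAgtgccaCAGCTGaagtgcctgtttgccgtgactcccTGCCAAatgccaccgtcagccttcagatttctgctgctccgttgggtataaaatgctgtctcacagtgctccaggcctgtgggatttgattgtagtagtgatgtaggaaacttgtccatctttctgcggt
Fam19a2, chr10:123548456-123548755, intron of Fam19a2: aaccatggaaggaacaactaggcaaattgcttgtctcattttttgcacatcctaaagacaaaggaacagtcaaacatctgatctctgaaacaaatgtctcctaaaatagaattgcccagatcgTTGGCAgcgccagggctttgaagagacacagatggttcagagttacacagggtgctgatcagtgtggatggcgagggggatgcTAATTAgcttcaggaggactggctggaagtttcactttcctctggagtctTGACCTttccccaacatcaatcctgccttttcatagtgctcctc
Pthlh, chr6:147318354-147318653, intergenic: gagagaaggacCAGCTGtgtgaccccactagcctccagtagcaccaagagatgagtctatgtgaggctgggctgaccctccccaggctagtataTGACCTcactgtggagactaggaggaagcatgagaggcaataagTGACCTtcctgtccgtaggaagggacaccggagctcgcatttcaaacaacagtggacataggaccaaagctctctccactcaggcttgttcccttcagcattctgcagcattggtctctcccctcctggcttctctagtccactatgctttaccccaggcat

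Levels at the 1019 regions were low to moderate. The median was 6.61 and 6.66 CPM in the PV replicates, 8.44 and 9.39 CPM in the VIP replicates, and 2.1 and 2.22 CPM in the SST replicates. A single read was worth 0.443 to 0.555 CPM, since 1801883 to 2256073 reads fell in reference regions per sample, and the threshold of 3 CPM was passed with 6 reads in a PV and 7 in a VIP sample. The lowest PV or VIP value had a median of 4.99 CPM, lay under 5 CPM in 526 regions (51.6%) and reached 10 CPM in 155. The ratio of that value to the higher SST value had a median of 1.98 and quartiles of 1.7 and 2.68. It was 2 or more in 499 regions, 3 or more in 170 and 5 or more in 40, with a highest value of 15.9. No region was without a read in both SST replicates. Over all reference regions the median was 1 read in SST replicate 1 and 2 in SST replicate 2, so low SST signal and none cannot be told apart at the weakest.

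**Figure D1:**
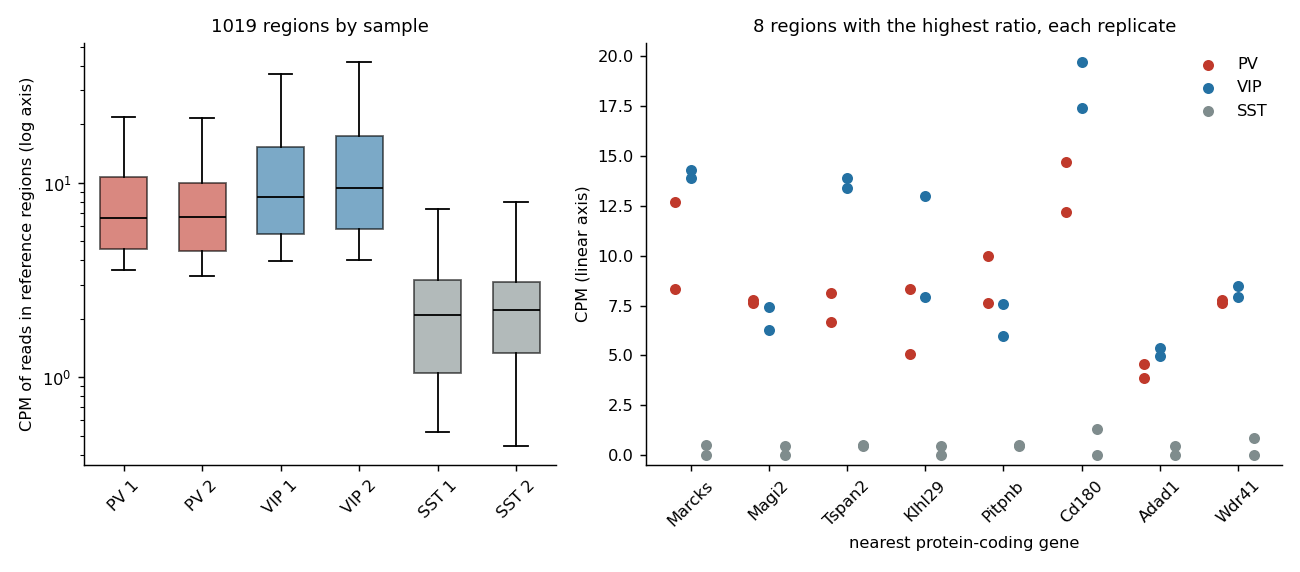
CPM of reads in reference regions by sample. Left, all 1019 regions on a log axis, with boxes for the quartiles, a line for the median and whiskers from the lowest to the highest 5% (regions without a read are drawn below the value of 1 read). Right, the 8 regions with the highest ratio on a linear axis, named by their nearest gene, with 1 point for each replicate. The SST points of these 8 lie at 1.33 CPM or less and the PV and VIP points at 3.88 CPM or more, as the rule requires a gap.

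The region with the highest ratio lay at chr10:37156974-37157711, 18054 bp from the start of Marcks, a substrate of protein kinase C that binds actin. It had 12.7 and 8.32 CPM in PV, 13.9 and 14.3 CPM in VIP, and 0.525 and 0 CPM in SST. SST thus rested on a single read there, and both PV and VIP were well above it. A region in an intron of Magi2, which encodes a scaffold protein of synapses, had 7.63 and 7.77 CPM in PV, 7.45 and 6.26 in VIP, and 0 and 0.443 in SST, at chr5:19482753-19483497. In an intron of Mast4, a kinase gene, chr13:102933519-102934228 had 14.7 and 12.2 CPM in PV, 17.4 and 19.7 in VIP, and 0 and 1.33 in SST. The other regions among the 8 were near Tspan2, Klhl29, Pitpnb, Adad1 and Wdr41, with ratios of 8.6 to 12.7. In the test of PV against VIP given below, 7 of these 8 were tested and none was called, while the region near Adad1 was under the count filter. Of all regions tested 49.1% were called, and of the regions of PV and VIP 29.3%. The ratio rests on the lowest PV or VIP value, so the choice of these 8 shapes this outcome.

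The strongest regions had smaller ratios. The highest lowest value, 52.7 CPM, belonged to chr6:121210320-121211130, which spans the start of Tuba8, an alpha-tubulin gene. It had 61 and 52.7 CPM in PV, 59.1 and 83.1 in VIP, and 33.6 and 32.4 in SST, so that SST was open there too. At the start of Lmcd1, which encodes a LIM domain protein, PV had 59 and 61.6 CPM, VIP 36.7 and 42, and SST 18.9 and 19.1, so that SST was again the lowest. A conserved intergenic region 86708 bp from Tfap2a, the gene of the transcription factor AP-2 alpha, had 41.6 to 45.8 CPM in the PV and VIP samples and 16.8 and 21.7 in SST. In an intron of Ppp1r16b, a phosphatase regulator, chr2:158734277-158735136 combined a high level with a clear gap, at 36.6 and 39.4 CPM in PV, 35.2 and 32.6 in VIP, and 6.82 and 5.76 in SST. The 8 strongest regions had ratios of 1.54 to 4.78. One of them, intergenic and nearest to Gm4737, was uneven in SST, at 2.62 CPM in replicate 1 and 15.1 in replicate 2.

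Just inside the ratio were regions near Zbtb16, C1qtnf4 and Sipa1, each with a lowest value of 3.33 CPM against 2.22 CPM in SST replicate 2. Just outside it were regions near Osbpl3, Znfx1 and Plekhh3, whose lowest values were 9.43, 9.43 and 8.64 CPM against a higher SST value of 6.3, 6.3 and 5.77 CPM. Just inside the minimum were regions near Mcf2, Sdccag8 and Hand2 at 3.05 CPM, and just outside it regions near Sept6, Frmd6 and Rassf8 at 2.98 CPM. With one SST replicate left out the rule gave 2049 regions (without replicate 1) and 2209 (without replicate 2), and with one PV replicate left out 1814 (without replicate 1) and 1725 (without replicate 2).

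Peaks that the authors had called in each replicate were a second view of the same reads. A peak of all 4 PV and VIP replicates overlapped 685 regions (67.2%, against 73.4% at the same level and 6.75% of all reference regions), and 311 of these had none in SST (488 of the 23840 regions at the same level). A peak in at least 1 SST replicate was found at 425 regions (20602 of the 23840 at the same level), while 28 had no peak in any of the 6 samples (1458 of the 23840). Of the regions, 212 (20.8%, against 18.0% of all reference regions) share bases with another reference region. How reads in shared bases were counted is not given in the sources used here.

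The labels were checked at gene starts. Regions within 2 kb of the start of Sst summed to 22.6 and 24.8 CPM in the SST samples and at most 2.77 elsewhere, and those of Vip to 13.4 and 17.9 CPM in VIP and at most 3.67 elsewhere. Those of Pvalb summed to 21.9 and 20 CPM in PV and 10.9 to 15.2 elsewhere. Summed over its whole list, the 5 SST markers reached 161 and 190 CPM in SST and 109 to 158 elsewhere, and the 7 VIP markers 132 and 136 in VIP and 78.6 to 84.3 elsewhere. Of the SST list, Sst and Grin3a were higher in both SST replicates than in all other samples. Cbln4, Crhbp and Elfn1 were not, and Cbln4 was highest in PV replicate 1 (102 CPM, against 54.6 and 87.8 in SST). Of the VIP list, Adarb2 was lowest in VIP (5.96 and 7.15 CPM, against 12.9 to 26.4 elsewhere) and Npy2r did not separate the groups. The 6 PV markers did not follow their label, with 136 and 139 CPM in PV against 180 and 198 in VIP and 122 and 171 in SST, and of the 6 genes Pvalb and Tac1 were higher in both PV replicates than in all other samples. For 5 oligodendrocyte precursor genes the sums were 54.5 and 46 CPM in PV, 15.4 and 17.9 in VIP, and 45.6 and 39.9 in SST. Sums for astrocytes (4 of 5 genes had a region) ran from 92.8 to 131 CPM, for oligodendrocytes (4 genes) from 15.3 to 35.5, for microglia (5 genes) from 4.46 to 12.2 and for vascular cells (4 of 5 genes) from 13.9 to 24.4. The 7 excitatory genes summed to 132 and 119 CPM in PV, 97.8 and 87.2 in VIP, and 105 and 105 in SST. None of these lists of other cells was higher in all 4 PV and VIP samples than in both SST samples. Of their genes, Aldoc (8.14 to 14.3 CPM against 1.05 and 2.22 in SST) and Pdgfrb (5.59 to 8.49 against 5.25 and 5.32) were. The part of other cells in the differences was not tested, and fewer cells with an open region cannot be told apart from less signal in each cell.

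Against protein-coding genes of GENCODE vM21, 483 of the 1019 regions (47.4%) lay in introns, 386 (37.9%) between genes, 96 (9.42%) over exons, and 54 (5.3%) within 1 kb of a gene start. A single start was taken per gene, so a region at the start of another transcript can count as an intron or exon, far from a start. Of the 23840 regions with the same PV and VIP minimum, which were stronger at the median, 51.0% were within 1 kb of a start and 16.3% in introns. The regions higher in SST and PV than VIP had 14.0% and 35.1%, and those higher in SST and VIP than PV had 23.6% and 29.0%. All reference regions had 6.15% and 34.2%. The regions of PV and VIP thus had a share at starts below that of regions at the same level and near that of all reference regions, and the highest share in introns of these sets. The share at starts depended on the SST replicates, since it reached 15.8% when SST replicate 1 was left out and 14.2% when SST replicate 2 was.

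**Figure D2:**
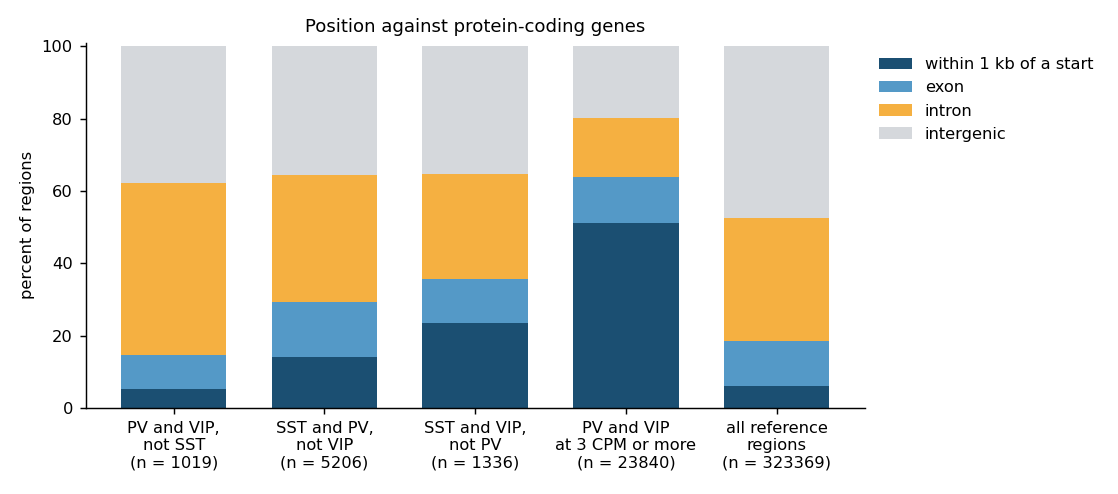
Percent of regions (vertical axis) by position against protein-coding genes, for the 1019 regions of PV and VIP and for 4 sets beside them, with the number of regions under each bar. The regions of PV and VIP have the largest share in introns (47.4%), and the regions at 3 CPM or more in PV and VIP the largest share within 1 kb of a start (51.0%).

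The median distance to the nearest protein-coding gene start was 50997 bp, with quartiles of 18118 and 117847 bp, against 39082 bp for SST and PV, 26444 bp for SST and VIP, 816 bp at the same level, and 58839 bp for all reference regions. More than 50 kb from a start were 513 regions (50.3%), against 19.8% at the same level and 53.8% of all reference regions. With the starts of all annotated genes in place of protein-coding ones, the median fell to 19336 bp and the share beyond 50 kb to 21.7%. The regions lay on 20 chromosomes, with the most on chromosomes 2 and 11 (93 each). On the X chromosome there were 9, which was 1.53% of its regions at that level, against 4.27% over the genome. Few lay close together, and 59 (5.79%) were within 10 kb of another.

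Conservation was above that of all reference regions and, at the median, below that of regions at the same level. The mean phyloP score over each region, which is above 0 where bases changed more slowly than neutral sequence across placental mammals, was 0.155 at the median region (quartiles 0.029 and 0.369). The median was 0.118 for SST and PV, 0.144 for SST and VIP, 0.175 for regions at the same level, and 0.0642 for all reference regions. Away from starts by more than 1 kb, the medians were 0.148 for the regions of PV and VIP and 0.134 for those at the same level. A mean score above 0.5 was found for 161 regions (15.8%), against 20.8% at the same level and 11.2% of all.

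The 5 most conserved regions had mean scores of 1.68 to 1.72. The region in an intron of Nrip1, a corepressor of nuclear receptors, whose sequence is printed above, had 4.07 and 6.66 CPM in PV, 7.94 and 14.3 in VIP, and 2.1 and 1.77 in SST. An intron of Bach2, which encodes a transcription factor, held one at chr4:32531247-32531987, with 23.4 and 18.3 CPM in PV, 16.4 and 15.2 in VIP, and 5.25 and 6.21 in SST. An intron of Smg6, which acts in nonsense-mediated decay of RNA, held another with 10.2 and 8.88 CPM in PV, 13.4 and 6.71 in VIP, and only 0.525 and 0.886 in SST. The others were intergenic, 359954 bp from Gpd2 and 1023560 bp from Adgrl2.

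Sequence was not used by the rule. In the central 300 bp, 323 regions (31.7%) held the NFI motif, against 16.6% for SST and PV, 19.9% for SST and VIP, 14.0% at the same level and 20.7% of all reference regions. The nuclear receptor motif was found in 235 (23.1%), against 12.8% for SST and PV, 7.26% for SST and VIP and 15.2% of all. The E-box CAGCTG, a sequence bound by basic helix-loop-helix factors, was found in 514 (50.4%), against 38.3%, 40.0%, 27.6% and 26.3% of the sets in the order given for NFI. The homeodomain core was found in 86 (8.44%), against 4.46%, 4.42%, 2.56% and 4.91%. For all 4 motifs the share was thus above each of the other sets. Since fewer of these regions lie at gene starts, the shares were also taken beyond 1 kb of a start, and there they were 32.8% against 19.7% at the same level for the NFI motif, 23.2% against 13.3% for the nuclear receptor motif, 51.1% against 38.0% for the E-box (46.3% for SST and VIP, the closest set) and 8.7% against 4.43% for the homeodomain core. The median GC content of the 300 bp was 54.0%, against 53.0% for SST and PV, 55.3% for SST and VIP, 61.3% at the same level and 51.0% for all. Beyond 1 kb of a start it was 53.7%, against 55.3% at the same level. The part of base composition or of read level in these shares was not tested.

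AP-1 sites, TGANTCA, were in 13.8% of the regions, against 17.4% for SST and PV, 15.6% for SST and VIP, 7.71% at the same level and 13.0% of all. The MEF2 motifs CTATTTATA and CTAAAAATA were rare but also more frequent than in the other sets, in 31 regions (3.04%), against 1.48% for SST and PV, 0.749% for SST and VIP, 1.02% at the same level and 1.06% of all. Of the 1019 regions, 342 (33.6%) held at least 2 of the 4 motifs printed above, against 10.3% at the same level. As each of the 4 had a share above all other sets, this joint share repeats those results. Regions at gene starts, which were 51.0% of those at the same level, were not left out here. Among regions with a ratio under 2, from 2 to under 3, and 3 or more (520, 329 and 170 regions), the nuclear receptor motif was in 20.8%, 22.2% and 31.8%, and the NFI motif in 28.8%, 35.6% and 32.9%. The E-box was in 47.3%, 55.0% and 51.2%, and the homeodomain core in 8.46%, 8.81% and 7.65%. AP-1 sites were in 14.4%, 14.0% and 11.8%, and MEF2 in 2.69%, 2.74% and 4.71%.

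**Figure D3:**
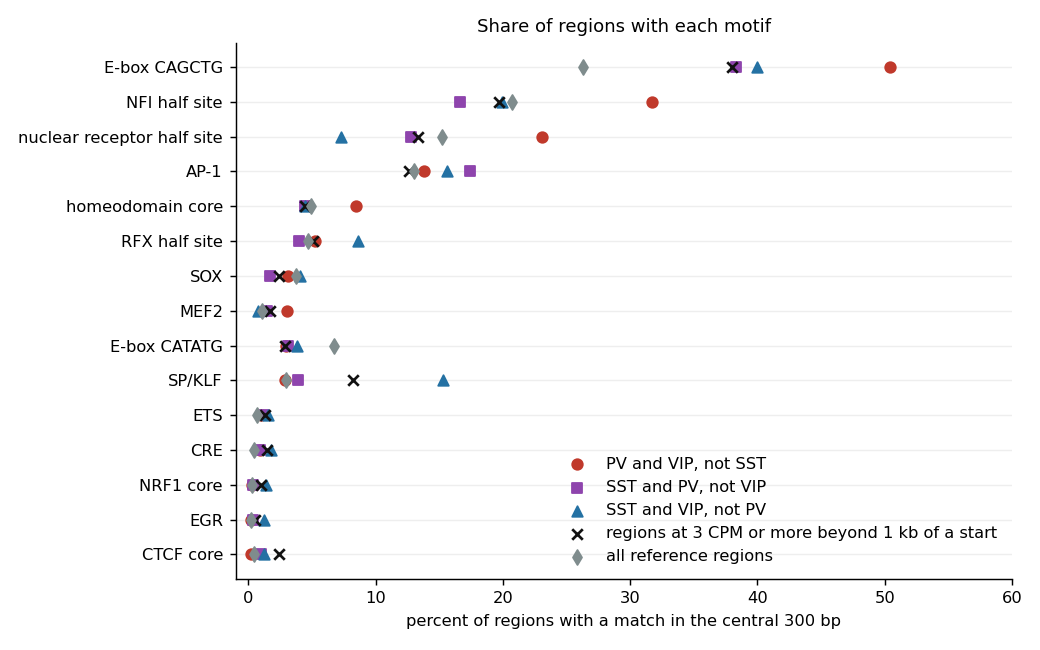
Percent of regions with a match to each of 15 motifs, on either strand, in the central 300 bp. Circles are the 1019 regions of PV and VIP, and other marks the sets beside them. The circles lie to the right of all other marks for the E-box CAGCTG (50.4%), the NFI motif (31.7%), the nuclear receptor motif (23.1%), the homeodomain core (8.44%) and MEF2 (3.04%).

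PV and VIP were compared with each other at these regions, a difference that the rule limits but does not rank on. Of the 1019 regions, 885 passed the count filter and were tested with edgeR over all 40338 regions that passed it. VIP was higher at 228 of the 885 (25.8%, background 24.6% over all regions tested) and PV at 31 (3.5%, background 24.6%), at an adjusted p under 0.05. In either direction 259 (29.3%) were called, against 49.1% of all regions. The median log2 difference of PV over VIP was −0.42 at the 885 regions (quartiles −1.06 and 0.09), and 0.04 over all. As each region had to pass 3 CPM and the ratio in all 4 samples, regions below that level in one of these types cannot be among them. That level is not a called peak, which all 4 replicates had at 685 of the 1019 regions. The choice of regions used these same PV and VIP counts and so shapes these shares and the median, which are a description. DESeq2 called 4 of the regions higher in PV (background 12.9%) and 143 in VIP (background 15.9%). Without the count filter edgeR called 0 of all 1019 higher in PV (background 0.998%) and 173 in VIP (background 2.51%). The log2 differences at the regions moved by a median of −0.06 and −0.01 without PV replicate 1 or 2. Without VIP replicate 1 or 2 they moved by −0.16 and −0.08. Over all regions these moves were −0.05, −0.02, −0.13 and −0.1, in the same order.

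**Figure D4:**
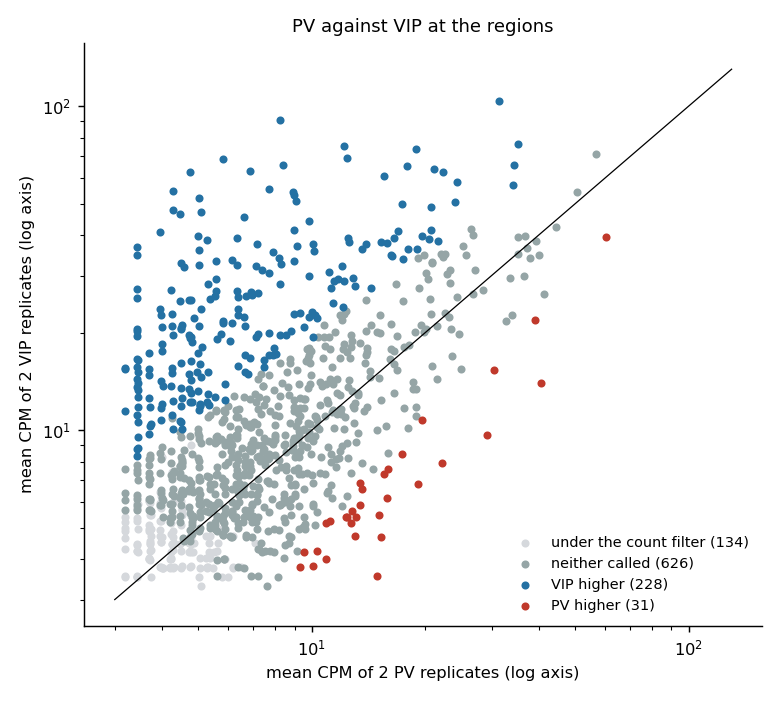
Mean CPM of both VIP replicates against mean CPM of both PV replicates at the 1019 regions, both on log axes, with the line of equal values. Blue marks 228 regions higher in VIP and red 31 higher in PV (edgeR, adjusted p under 0.05), and grey those not called (626) or under the count filter (134).

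The largest excess in VIP was at the intron of Frmd4b printed above, whose product has a FERM domain. VIP had 60.6 and 64.4 CPM there, PV 5.08 and 4.44, and SST 2.1 and 2.22, a log2 difference of PV over VIP of −3.67 ± 0.344 (SE, edgeR adjusted p = 1.83e-06). In an intron of Rasd2, the gene of a small GTPase, the values were 50.6 and 58.6 CPM in VIP, 3.56 and 4.99 in PV and 1.05 and 2.22 in SST. An intergenic region 17273 bp from Begain, the gene of a postsynaptic protein, had 90.4 and 90.7 CPM in VIP, 8.14 and 8.32 in PV and 5.25 and 3.55 in SST. An intron of Ndufaf2 and a region near Sod3, the gene of an extracellular superoxide dismutase, completed the 5 largest, at −3.52 and −3.44 on the log2 scale. At Rasd2 no peak was called in either PV replicate, and at Frmd4b PV replicate 2 had none while SST replicate 2 had a peak. The others had a peak in all 4 PV and VIP replicates, and Begain in both SST replicates too. In all 5 the PV values were closer to SST than to VIP. An intron of Ntrk3, which encodes the neurotrophin-3 receptor, was alike, with 40.7 and 53.6 CPM in VIP, 4.07 and 6.1 in PV and 1.05 and 1.77 in SST (log2 −3.18 ± 0.377 SE, edgeR adjusted p = 1.23e-05).

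The largest excess in PV was smaller. At chr15:62104363-62105220, 118972 bp from Myc, PV had 19.3 and 10.5 CPM, VIP 3.97 and 3.13, and SST 0.525 and 0.443, a log2 difference of 2.09 ± 0.473 (SE, edgeR adjusted p = 0.00177). A region 23202 bp from Gpr158, the gene of an orphan receptor, had 29.5 and 28.9 CPM in PV, 10.9 and 8.49 in VIP and 1.05 and 2.22 in SST. Regions in introns of Atrnl1, Commd10 and Masp1 were the other 3 of the 5 largest, with log2 differences of 1.5 to 1.72. In none of these 5 did the replicates of PV and VIP overlap, but they were chosen by the size of this difference. Of the 1019 regions, 172 had both PV replicates above both VIP replicates, and 495 had the reverse. The call near Myc was lost without PV replicate 1 (log2 1.55, edgeR adjusted p = 0.0891), and all 5 were lost without the count filter (edgeR adjusted p from 0.0557 to 0.13). In Atrnl1 it was lost without PV replicate 1 too (edgeR adjusted p = 0.0662), and in Masp1 without VIP replicate 2 (0.0656). With DESeq2 both of these were lost (DESeq2 adjusted p = 0.0544 and 0.0546).

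The regions were spread over 890 nearest genes, 104 of which were nearest to at least 2 regions and 18 to at least 3. Most regions were nearest to Cd180 (5 regions, out of 13 at that level and 128 in all). Cd180 encodes a receptor of B cells, and 2 of its 5 regions lay in introns of the kinase gene Mast4. A further pair overlap each other at the start of Cd180. The stronger of these, chr13:102693270-102694070, had 10.7 and 9.43 CPM in PV, 32.8 and 42.5 in VIP, and 2.1 and 1.77 in SST. All 5 were below 3 CPM in both SST replicates.

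Nfib, the gene of a transcription factor of the NFI family, held 3 of the regions in its introns. The one 14909 bp from its start, chr4:82690085-82690841, was among the strongest, with 40.2 and 30.5 CPM in PV, 64 and 88.5 in VIP, and 4.72 and 4.88 in SST. The second, chr4:82506028-82506885, had 19.8 and 20.5 CPM in PV, 30.3 and 30.8 in VIP, and 4.72 and 9.75 in SST. Its central 300 bp had a GC content of 83.0%, and whether it lies at the start of another Nfib transcript was not tested. The third, chr4:82447120-82447928, was highly conserved (phyloP 1.09) and had 6.1 and 4.44 CPM in PV, 11.9 and 12.5 in VIP, and 1.05 and 1.33 in SST. In all 3 both VIP replicates were above both PV replicates, as they were in 495 of the 1019 regions. The log2 differences of PV over VIP were −1.08, −0.57 and −1.17 (edgeR adjusted p = 0.00265, 0.15 and 0.0317). The call of the first was lost without PV replicate 2 (edgeR adjusted p = 0.0557) or VIP replicate 2 (0.0566), and that of the third without any 1 of the 4 PV and VIP replicates (0.0639 to 0.197).

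B3gat1, the gene of a glucuronyltransferase that builds the HNK-1 carbohydrate, had 4 regions with unlike profiles. At its start, chr9:26733203-26734297, VIP had 37.7 and 45.1 CPM, PV 9.66 and 8.32, and SST 3.67 and 5.32 (log2 PV over VIP −2.17 ± 0.337 SE, edgeR adjusted p = 0.000111). A region 32836 bp away, chr9:26700112-26700892 had 36.6 and 28.9 CPM in PV, 17.9 and 25.5 in VIP and 4.72 and 11.1 in SST, and PV and VIP were not called different (log2 0.62 ± 0.339 SE, edgeR adjusted p = 0.137). Each of Wwc1, Klhl29 and Tns3 was also nearest to 4 regions. All 4 regions nearest to Wwc1 lay in Tenm2, which encodes a teneurin, an adhesion protein of synapses. All 4 of Klhl29 were in its own introns. Rybp, Sept9 and Plxna4, the last a receptor of semaphorins in axon guidance, were each nearest to 3.

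Lists of genes with known roles in interneurons were read against the nearest genes, with 4.27% of all regions at that level as background. Of 14 regulators of the medial eminence 1 gene, Maf, had regions (2 of 45 at that level, 4.44%), and of 10 of the caudal eminence 1, Tcf4 (2.86%). Of 14 synapse and axon genes there were 2, Cntnap4 and Robo2 (5.0%), of 12 ion channels 1, the calcium channel gene Cacna1a with 2 regions (6.06%), of 16 receptors 1, Adra1a (3.33%), and of 12 activity genes 1, Fos (2.22%). These shares rest on 1 or 2 regions each. The markers of SST and VIP cells had 14 and 7 regions at that level, and 0 of them were among the 1019, too few to read. Maf, a transcription factor, had 6.1 and 6.66 CPM in PV, 25.3 and 26.4 in VIP, and 3.15 and 0.886 in SST in a region 331651 bp from its start. A second region, 267651 bp away, had 7.12 and 7.21 CPM in PV, 9.43 and 7.15 in VIP, and 0.525 and 1.77 in SST. In an intron of Cacna1a, chr8:84446482-84447342 had 3.56 and 4.44 CPM in PV, 16.4 and 18.8 in VIP and 1.05 and 1.33 in SST. An intron of Gad1, which encodes a GABA-synthesising enzyme, held a weak one with 4.58 and 4.44 CPM in PV, 5.46 and 6.26 in VIP, and 1.57 and 2.66 in SST.

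Of the PV markers, Btbd11 and Pthlh had 2 regions each (4 of 20 at that level, 20.0%). Near Pthlh, which encodes a peptide related to parathyroid hormone, chr6:147317031-147317734 had 3.05 and 6.1 CPM in PV, 28.8 and 34.9 in VIP, and 1.57 and 0.886 in SST (log2 PV over VIP −2.77 ± 0.41 SE, edgeR adjusted p = 7.71e-05). Its neighbour, printed above, was weak in all samples, with 3.56 and 3.33 CPM in PV, 3.97 and 8.49 in VIP and 1.57 and 2.22 in SST. Of markers of other cells, the astrocyte genes Aldoc and Slc1a3 had 1 region each (2 of 7 at that level, 28.6%), as did the oligodendrocyte gene Mbp (1 of 12, 8.33%). The region at the start of Aldoc had 8.14 and 11.7 CPM in PV, 13.4 and 14.3 in VIP, and 1.05 and 2.22 in SST.

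Nuclear RNA was a readout that the rule did not use. In the snRNA-Seq data, 1371 PV-like, 681 VIP-like and 935 SST-like nuclei, 1 cluster each, were found by markers, with a median of 873, 570 and 716 UMIs. The methods give 2 mice for these 10 libraries, which are deposited as 1 sample and were summed here. Levels are sums over nuclei with counting intervals, and no test across mice was run. Of 522 nearest genes with at least 30 UMIs, 53 (10.2%, background 5.53% of 9778 genes) were at least 1.5 times higher in both PV-like and VIP-like than in SST-like nuclei, and 24 (4.6%, background 3.77%) were as much lower in both. Of the 65 measured genes nearest to at least 2 of the regions, 13 (20.0%) were higher, and of 359 that hold a region in their body, 46 (12.8%). For the nearest genes of SST and PV regions the share was 6.48%, and for those of SST and VIP 5.66%. Most nearest genes were thus in neither class.

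The largest ratio was that of Pthlh, with 67 UMIs in PV-like, 112 in VIP-like and 1 in SST-like nuclei, or 0.488, 2.23 and 0.0119 per 10000 UMIs. Its PV-like level was 40.9 times that of SST-like nuclei, with a 95% counting interval from 7.1 to 1640, and Pthlh and Btbd11 were on the PV marker list by which clusters were named. Shisa9, whose product is an auxiliary protein of AMPA receptors, had 1.36, 4.06 and 0.191 UMIs per 10000 in PV-like, VIP-like and SST-like nuclei, a lowest ratio to SST of 7.14 (interval 4.28 to 12.7). Parm1 had 5.55, 4.93 and 0.739, a ratio of 6.67 (5.03 to 8.96). Fam19a2, which encodes a secreted chemokine-like protein, had 1.38, 1.05 and 0.262, a ratio of 4.02 (2.4 to 6.94). Ntrk3, B3gat1 and Lgi2 had ratios of 2.8, 2.71 and 2.62. Nfib had 1.2, 3.5 and 0.632 UMIs per 10000, a ratio of 1.9 (1.39 to 2.64), and was above SST-like nuclei in both classes in 8 of 10 libraries. Gad1 had 21, 16.9 and 9.5, a ratio of 1.78 (1.62 to 1.97).

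Other nearest genes were lower in at least 1 of both classes than in SST-like nuclei. Timp3, an inhibitor of metalloproteinases, had 0.182, 0.239 and 1.2 UMIs per 10000 in PV-like, VIP-like and SST-like nuclei, and Ptpru, a receptor tyrosine phosphatase, 0.102, 0.298 and 1.48. Adcy2, an adenylyl cyclase, had 0.539, 3.78 and 3.99. Tmem132c had 203 UMIs in PV-like but 1 in VIP-like nuclei, against 31 in SST-like. Frmd4b had 0.32, 0.239 and 1.24 UMIs per 10000, although its intronic region was far more open in VIP than in SST. Maf had 4.17, 3.42 and 4.9, and Cacna1a 4.23, 1.87 and 4.05. Sst itself was at 2.02 in PV-like and 1.57 in VIP-like against 150 UMIs per 10000 in SST-like nuclei. The source of its UMIs outside SST-like nuclei was not tested.

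**Figure D5:**
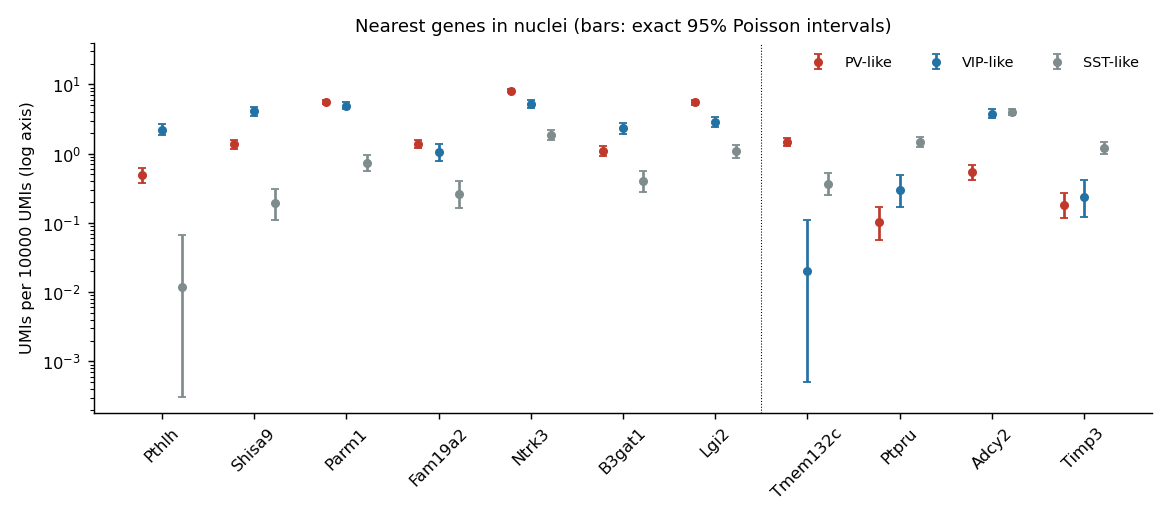
UMIs per 10000 UMIs (log axis) of nearest genes in PV-like, VIP-like and SST-like nuclei, with exact 95% Poisson intervals that cover counting only. Left of the dotted line are 7 genes with a high ratio of the lower of PV-like and VIP-like to SST-like nuclei, from 40.9 (Pthlh) to 2.62 (Lgi2), and right of it the 4 with the lowest, from 0.0538 (Tmem132c) to 0.151 (Timp3).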

How the data were processed

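ATAC-Seq was analysed in 6 samples (2 each of PV, VIP and SST) and snRNA-Seq in 1 sample of 10 libraries. Per the labels and methods, the authors trimmed reads with Trimmomatic 0.33, aligned them with Subread 1.4.6-p3 to mm10, removed duplicates, and deposited counts of reads on 323369 reference regions (featureCounts), without normalization. Reference regions were the union of peaks over experiments of their laboratory. The deposited peak lists, with a −log10 q-value per peak, hold MACS2 peaks also called by HOMER in each replicate. The deposited phyloP score is the mean over each region, by the authors. The deposited snRNA counts are UMIs. Columns of the authors' own comparisons were not used.

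Counts were scaled to 1000000 per column. Peaks sharing a base with a region were found with bedtools 2.31.1. Gene starts came from GENCODE vM21 on GRCm38, and distances run from the region's edge. Each gene had a single start, the outer end of its annotation, and the starts of its other transcripts were not used. Motifs were matched by letters in the central 300 bp, both strands together, and overlapping motifs were each counted. PV against VIP was tested with edgeR 4.0.16 in R 4.3.3 (quasi-likelihood, TMM, filterByExpr, all 6 samples, 3 residual degrees of freedom, Benjamini-Hochberg, 5%). Tested on simulated counts for PV against VIP, it recovered 130 (65%) of 200 regions, among 40338, given a log2 change of 2, with 6 false calls. There all regions had the same dispersion and only those 200 differed, while 19821 were called in the data. These rates therefore need not hold for the real counts. Nuclei with more than 200 non-viral UMIs (32335 of 47348 barcodes) were clustered (Leiden, resolution 1.5, leidenalg 0.10.2) and named by marker lists, with no doublet removal. Of 25866 barcode names, 5476 occurred in more than 1 library. Intervals on UMIs and ratios are exact, at 95%, and cover counting only.

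Named regions are the 8 with the highest ratio to the higher SST value, which was at 0 in none, the 8 with the highest lowest value, the 5 most conserved, the 5 largest PV against VIP calls each way, and 3 on each side of each threshold. Named genes are the nearest to these, the 10 with most regions, list genes, and the 8 highest and 4 lowest by UMI ratio (at least 100 UMIs), of which 2 genes are not reported here. Any other gene was chosen with its values in view. The regions, lists and rule were chosen with earlier results of these data known. Alternatives were other scalings, thresholds, annotations, windows, tools and left-out replicates.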

Additional observations from a re-analysis of the deposited data

How the results depend on the processing

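The number of regions was 943 with TMM and 970 with DESeq2 scaling, of which 800 and 814 were among the 1019. It was 1651 and 493 at a minimum of 2 and 5 CPM, 6652 with no minimum, 499 at a ratio of 2, and 1356 to 2209 with a replicate left out. The share within 1 kb of a start was 9.42% with starts of all annotated genes, 4.01% at a ratio of 2, and 4.99% to 15.8% with a replicate left out. The share beyond 50 kb was 21.7%, 54.1% and 40.8% to 51.3% under the same alternatives, and the median distance 19336, 56918 and 35419 to 53097 bp. A phyloP above 0.5 was found in 15.8% to 18.3% with a replicate left out.

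In the central 500 bp the shares rose, by the longer window, to 41.3% for the NFI motif (29.8% of all regions), 32.7% for the nuclear receptor motif (24.5%), 59.7% for the E-box (34.9%), 12.4% for the homeodomain core (9.3%), 4.42% for MEF2 (1.83%) and 19.2% for AP-1 (18.7%). At a fold of 2 in nuclei, 4.98% of nearest genes were higher, against 2.04% of all. In each set of 5 libraries alone, at the fold of 1.5, the share was 9.79% against 6.81% and 10.5% against 6.65%.

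For PV against VIP, DESeq2 called 11614 regions in all, with 4 and 143 of the 1019 higher in PV and VIP. Without the count filter edgeR called 10868, with 0 higher in PV and 173 in VIP, and the medians moved by −0.3 on the log2 scale. With only the PV and VIP samples, 62 were higher in PV and 262 in VIP, against 11236 and 11011 of all 35377 regions tested. With a replicate left out, 13006 to 27596 regions were called in all, with 4 to 43 of the 1019 higher in PV and 150 to 297 in VIP. Of 29 named regions called, 14 were called under every alternative and none changed direction. The cause of these changes was not tested. The fits with a replicate left out tested 53326 to 56308 regions, 950 to 992 of them among the 1019. Each left a single sample in a group, so no share by direction is read from them. Between samples of the same replicate number, deviations from the group mean had correlations of −0.0364 (PV and VIP), 0.0241 (PV and SST) and 0.0299 (VIP and SST). No shift shared by number was seen, but with 2 replicates per group this cannot show whether samples shared a batch. With the replicate number as a block, 19204 of 40338 regions were called in all, 9587 higher in PV and 9617 in VIP. Of the 885 of the 1019 that were tested, 26 and 222 were.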

Other observations

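Genes of the factor families whose motifs were frequent were read in nuclei, chosen after the motif shares had been seen. Of the NFI family, Nfix was at 0.597, 2.01 and 0.489 UMIs per 10000 in PV-like, VIP-like and SST-like nuclei, Nfia at 0.335, 0.398 and 0.155, Nfib at 1.2, 3.5 and 0.632, and Nfic at 0.925, 0.895 and 0.703. Of nuclear receptors, Rora was at 2.26, 1.79 and 0.99 and held 2 of the regions in its body, Rorb was at 0.32, 0.219 and 0.119, Nr2f1 at 1.68, 3.06 and 1.72, Nr2f2 at 0.16, 2.98 and 0.465, Esrrg at 1.43, 0.259 and 0.262, and Thrb at 1.06, 1.39 and 1.11. Of basic helix-loop-helix genes, Tcf4 was at 14.5, 23.4 and 14.9, Tcf3 at 0.131, 0.179 and 0.179, and Tcf12 at 0.772, 0.696 and 0.537. These levels come from 1 sample and were not tested.

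Motif shares were also taken by the balance of PV and VIP, with no test. The NFI motif was in 42.5% of the 228 regions higher in VIP, 28.9% of the 626 not called and 22.6% of the 31 higher in PV, and the nuclear receptor motif in 18.4%, 24.1% and 25.8%. The E-box was in 61.4%, 48.9% and 41.9%, and the homeodomain core in 7.89%, 9.9% and 6.45%. The shares among the 31 rest on 7, 8, 13 and 2 regions for these 4 motifs, in the order given.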
